A study of Rattus norvegicus with 16 samples.

Results

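Gene expression in the gustatory cortex was compared between 8 rats killed 1 h and 8 rats killed 3 h after a drinking session, with the rats that drank water and those that drank saccharin in 1 analysis. The gustatory cortex is the taste area of the insula. All 16 arrays of the series entered the comparison, and they are the whole series, so no sample was selected by its values. They fall into 4 groups of 4, which are Water 1 hr, Saccharin 1 hr, Water 3 hr and Saccharin 3 hr, and each array holds the sample of 1 male Wistar Hola rat. The Water groups drank the familiar fluid and the Saccharin groups drank 0.1% saccharin, which they had not tasted before. All 4 groups had been held to scheduled water for 3 days, and no group without a drink was measured on these arrays, so a difference with time has no baseline from before the drink. The labels give the age as 2 months, and the methods give a range in weeks that starts above it. The arrays were Affymetrix RaGene 1.1 ST, and the deposited values are log2 expression after robust multi-chip average (RMA), the unit of every level and change given here. Changes are written as 1 h minus 3 h, so a positive value is a level that was higher at 1 h, and the value after ± is the standard error of the fit in limma.

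Neurons that are driven by a stimulus switch on a first wave of genes within minutes, the immediate early genes, whose transcripts are short lived. Many encode transcription factors (Fos, Junb, Klf10) or phosphatases and other proteins that shut the inducing signal off (Dusp1), and a later wave of effector genes such as growth factors and channels follows. A comparison of 1 h with 3 h could therefore set the tail of the first wave against the later one. With no group from before the drink, a gene that differs here cannot be assigned to either wave. Genes with modest changes are hard to see in such data when only 4 animals stand on each side, and the 8 against 8 arrays used here address that limit. In a tissue sample, a lower level may mean less RNA per cell or fewer cells of the type that makes it, and these cannot be told apart.

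In the fit over 16 arrays with taste as a blocking factor, 160 of the 15209 probe sets that are paired with 1 gene passed a Benjamini-Hochberg adjusted p of 0.05 (1.05% of those tested), and they represent 159 genes. Of these, 113 were higher at 1 h (0.743%) and 47 were higher at 3 h (0.309%). Before adjustment 1884 probe sets had p under 0.05 (12.4%), divided about evenly between the directions (976 and 908). When each taste was tested alone, 4 arrays against 4, 19 probe sets passed after water (0.125%) and 53 after saccharin (0.348%), 54 in all. Taking the tastes together therefore added 111 probe sets of 111 genes that neither taste had called (0.73% of those tested), 74 higher at 1 h (0.487%) and 37 higher at 3 h (0.243%). These 111 genes are the subject of most of what follows. They were chosen by their p in this same contrast, so their changes, their adjusted p-values and the separation of their arrays describe them and are no further support.

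**Figure D1:**
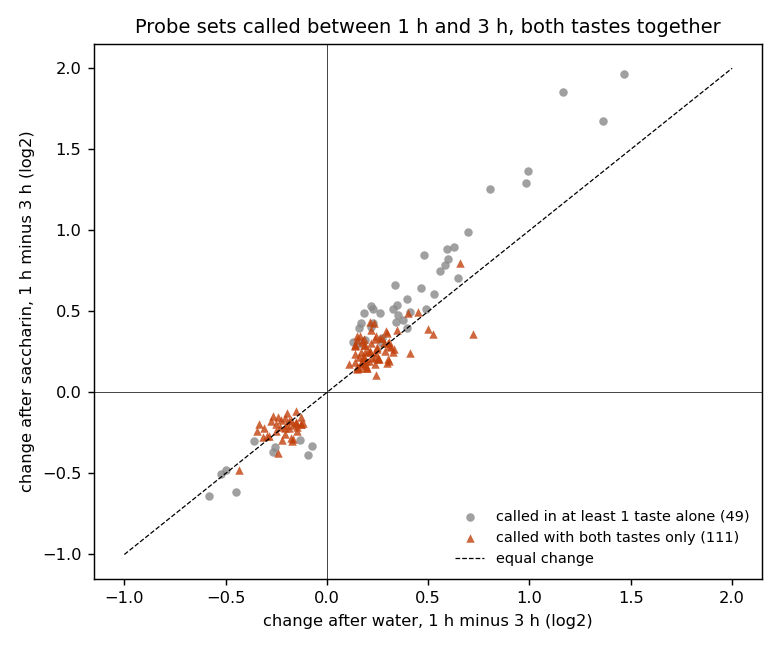
Change after water (x axis, log2, 1 h minus 3 h) against change after saccharin (y axis, log2) for the 160 probe sets that passed with both tastes together. Grey circles are the 49 that also passed in at least 1 taste alone, orange triangles are the 111 that did not, and the dashed line marks equal change. The triangles lie close to 0 (sizes of 0.13 to 0.73, the largest that of the dim Elmod2) and on both sides of the line. Of the circles, 46 of 49 changed more after saccharin, which their choice favours, since 35 of the 54 probe sets that passed in a taste alone passed after saccharin and not after water.

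The added genes changed by small amounts. Their sizes ran from 0.13 to 0.73 with a median of 0.23, whereas the 49 probe sets that had also passed in a taste alone ran from 0.20 to 1.72 with a median of 0.44. The 0.73 is that of Elmod2, a dim probe set that read 3.64 to 4.70 at 1 h and 2.83 to 3.91 at 3 h. Of the 111, 18 changed by more than 0.3 and 36 by less than 0.2, which is a difference of 14.9% on the linear scale. The median standard error over all probe sets was 0.0455 with both tastes and 0.0647 within a taste, a ratio of 1.42. The smallest change that passed was 0.13 with both tastes, 0.26 after saccharin and 0.36 after water. At the edge of the threshold, Tp53rkb was the last to pass (change 0.19, adjusted p = 0.0496), and Pxmp2 (-0.17, adjusted p = 0.0504), Ntsr1 (-0.25, adjusted p = 0.0504) and Ptn (0.11, adjusted p = 0.0506) fell just outside. All 111 moved the same way in both tastes, which the choice of the members largely fixes, and the change was larger after saccharin in 64 of them. In 23 of the 111 the 8 arrays of one time lay wholly above the 8 of the other, 12 with 1 h above and 11 with 3 h above. The same held for 28 of the 49 other called probe sets and for 66 of all 15209 (0.434%).

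Any pair of arrays correlated at 0.994 to 0.997 over the probe sets, and no pair was identical. The mean correlation of an array with the other 15 ran from 0.9955, in array C378 (Water 1 hr), to 0.9966. The defining markers of neurons stood at high levels, as Snap25 at 11.6 and Slc17a7 at 10.9 show. In limma 0 of 14 neuronal, 0 of 10 astrocyte, 0 of 11 oligodendrocyte, 0 of 12 microglial and 0 of 12 endothelial markers passed between the times. At an unadjusted p under 0.05 these lists held 1, 1, 0, 2 and 3 members, all of them higher at 3 h (5.97% of all probe sets were). Of the 10 reference genes 0 passed in limma, with 2 at an unadjusted p under 0.05 (12.4% of all probe sets had one), 1 in each direction. Gapdh (-0.017) and Actb (0.0014) hardly differed. Markers of the leptomeninges, the membranes that cover the cortex, were uneven between the times: 19 of 19 had a change above 0, 14 of them with p under 0.05 before adjustment (6.42% of all probe sets were), with a median change of 0.26, although 0 of 19 passed the adjusted threshold. The mean level of that list ran from 6.22 to 6.51 over the arrays at 1 h and from 5.80 to 6.38 at 3 h, so the times overlapped. Its collagen genes were well expressed (Col1a1 at 7.2, Col1a2 at 7.7, Col3a1 at 6.3). In the blood list, of which 0 of 5 passed in limma, Hbb stood at a change of 0.36 and Hbb-b1 at 0.32 (unadjusted p = 0.00499 and 0.0139), and the part of blood in the results was not tested. Neurons of the striatum, which lies beneath this cortex, were traced by 16 markers, of which 5 were positive. Of the 16, 1 passed (6.25%, against 1.05% of all probe sets), Drd2. Before adjustment 4 of the 16 were higher at 3 h with p under 0.05 (5.97% of all probe sets were) and 1 was higher at 1 h. The striatal list ran from 5.77 to 5.90 at 1 h and from 5.85 to 5.91 at 3 h. The 7 markers of the choroid plexus were dim, with 6 of them at a mean level under 5, but the mean of that list did not overlap between the times, at 3.89 to 3.99 at 1 h and 3.81 to 3.88 at 3 h. In that list 1 of 7 passed (14.3%, against 1.05% of all probe sets), Aqp1, which was higher at 1 h. Before adjustment 2 had p under 0.05, both higher at 1 h (6.42% of all probe sets were), and 4 of 7 changes were positive. The part of the choroid plexus in the results was not tested.

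**Figure D2:**
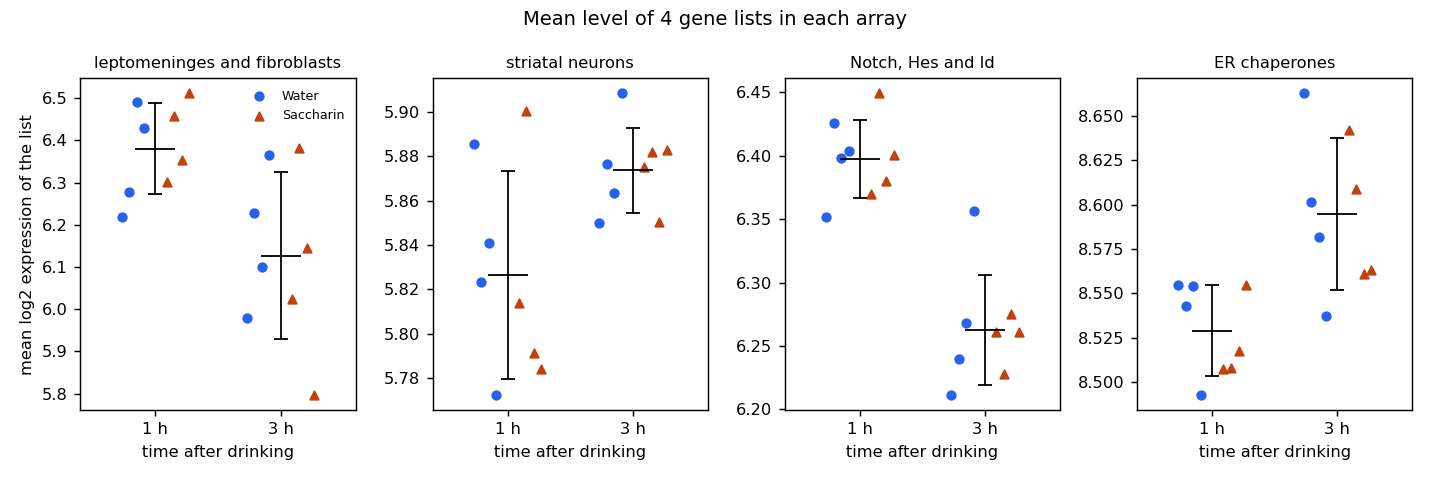
Mean log2 expression of 4 gene lists in each of the 16 arrays (y axis) at 1 h and 3 h after drinking, with Water as blue circles, Saccharin as orange triangles and bars for the mean and SD of 8 arrays; each panel has its own y axis. The leptomeningeal list is higher at 1 h with overlap, and the striatal list is lower at 1 h by less than 0.1, also with overlap. The Notch, Hes and Id list overlaps in a single pair of arrays. The list of endoplasmic reticulum (ER) chaperones is lower at 1 h with overlap (8.49 to 8.55 at 1 h, 8.54 to 8.66 at 3 h).

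Because the levels of these lists differed between the times, the fit was repeated with the mean of each list as a covariate. With the leptomeningeal mean, 33 probe sets passed, and 3 of the 111 remained (Nr1d1, Bhlhe41 and Trim21). With the striatal mean, 53 passed, and 14 of the 111 remained, among them Thrb, Ppp1r15a, Srp9, Nr1d1, Cdyl2, Mrps14, Lsm6, Tceal1 and Id3. The changes of the 111 came to a median of 0.905 and 0.991 of their size, and all kept their direction. The median standard error of the 111 grew from 0.0452 to 0.0582 and 0.0553. These medians do not give the spread over genes. Each list mean differed between the times, so these fits cannot separate it from time, and the cause of the lost calls was not tested. Adjusted p-values given below are without these covariates.

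The genes with the smallest p among those added at 1 h included several regulators of transcription. Arid3b, a DNA-binding protein with an AT-rich interaction domain (probe set 10917831), ranged at 1 h from 5.50 to 6.09 with a median of 5.95 over 8 arrays, and at 3 h from 5.27 to 5.57 with a median of 5.39. The change of 0.47 ± 0.0757 (adjusted p = 0.0026) was the largest among the 28 added genes with the smallest p (14 in each direction), and 7 of the 8 arrays at 1 h lay above every array at 3 h. Nr1d1, which encodes REV-ERB alpha, the repressor in the core loop of the circadian clock (probe set 10746955), ranged at 1 h from 8.53 to 8.87 (median 8.67) and at 3 h from 8.28 to 8.55 (median 8.38). Its change of 0.30 ± 0.0487 (adjusted p = 0.00311) was nearly the same after water (0.31) and after saccharin (0.29), and 7 of 8 arrays at 1 h exceeded all at 3 h. Mycn, a transcription factor of the MYC family, ranged at 1 h from 5.63 to 6.04 (median 5.85) and at 3 h from 5.33 to 5.71 (median 5.56). Again 7 of 8 arrays at 1 h stood above all of those at 3 h, with a change of 0.33 ± 0.0575 (adjusted p = 0.00507). None of these 3 genes had passed in a taste alone, where the adjusted p for saccharin was 0.0682 for Arid3b, 0.114 for Nr1d1 and 0.0698 for Mycn.

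Another group acts on RNA and on protein synthesis. Ppp1r15a, known as GADD34, brings protein phosphatase 1 to the translation factor eIF2 and so relieves the brake that stress puts on translation (probe set 10721865). It ranged at 1 h from 5.78 to 6.12 (median 5.96) and at 3 h from 5.57 to 5.79 (median 5.66), and 7 of 8 arrays at 1 h lay above all at 3 h (0.29 ± 0.0469, adjusted p = 0.0026). Srp9, a subunit of the particle that directs new secretory proteins to the ER, ranged at 1 h from 7.98 to 8.23 (median 8.13) and at 3 h from 7.75 to 7.95 (median 7.91). Here the 2 times did not overlap at all, with a change of 0.26 ± 0.0414 (adjusted p = 0.0026). Mrps14, a protein of the small mitochondrial ribosome, was higher at 1 h by 0.30 ± 0.0508 (adjusted p = 0.00465). Lsm6, part of the rings that bind U6 snRNA and decapping targets, was higher by 0.24 ± 0.0415 (adjusted p = 0.00507), and Clk1, a kinase of splicing factors, by 0.24 ± 0.0436 (adjusted p = 0.00695). Zfp36l2, which binds AU-rich elements and speeds the decay of their transcripts, was higher by 0.23 ± 0.0416 (adjusted p = 0.00717). In each of these 4 genes 7 arrays at 1 h lay above every array at 3 h.

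The remaining genes of the 14 with the smallest p at 1 h act in signalling or have less defined roles. Acer2, a ceramidase of the Golgi, ranged at 1 h from 5.29 to 5.67 (median 5.49) and at 3 h from 4.80 to 5.39 (median 5.05). Apold1, an early response gene of the endothelium, ranged at 1 h from 4.38 to 4.79 (median 4.64) and at 3 h from 3.84 to 4.43 (median 4.18). Their changes were alike, 0.45 ± 0.0773 (adjusted p = 0.00507) for Acer2 and 0.45 ± 0.0786 (adjusted p = 0.00561) for Apold1, and 6 and 7 arrays at 1 h exceeded all at 3 h. Socs2, a feedback inhibitor of cytokine and growth hormone signalling, was higher at 1 h by 0.23 ± 0.0419 (adjusted p = 0.0074). Ccdc117 (0.22 ± 0.0384, adjusted p = 0.00561) and Tceal1 (0.23 ± 0.0407, adjusted p = 0.00561) were higher as well, and in Ccdc117 the times did not overlap.

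**Figure D3:**
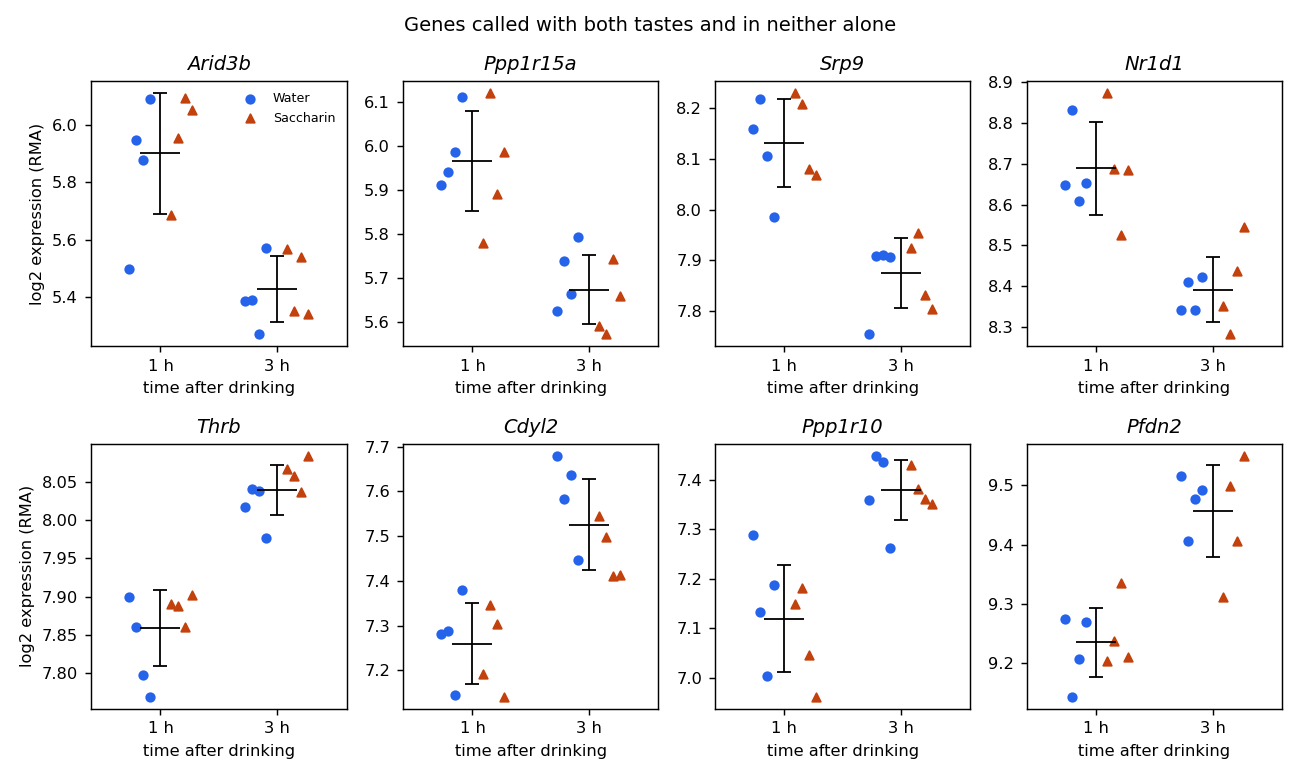
Log2 expression (RMA, y axis, a separate range in each panel) in every array at 1 h and 3 h for the 4 genes with the smallest p in each direction among those that passed with both tastes only. Blue circles are Water, orange triangles are Saccharin, and the bars give the mean and SD of 8 arrays. Srp9, Thrb and Cdyl2 do not overlap between the times, and in the other 5 genes 1 array or a few cross over.

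Promoters were read for the genes that passed, to show what precedes those that moved together. The cAMP response element (CRE, letters TGACGTCA, which reads the same on both strands) is bound by CREB, the factor through which calcium and cAMP drive many activity-regulated genes. Within the 250 bases upstream of the start, it stood in 5 of the 65 added genes that were higher at 1 h and have a promoter in the RefSeq table (7.69%), against 2.29% of the 11946 tested genes with one. The 5 are Ppp1r15a, Plk2, Irf2bpl, Ccnl1 and Nsmce3. Its core (TGACG on either strand, which the full element contains) stood in 27 of the 65 (41.5%) against 23.3% of all. Of the called genes higher at 1 h that had also passed in a taste alone, 28 have a promoter. The full element stood in 2 of these (7.14%) and the core in 10 (35.7%), so neither share is particular to the added genes. Among the 34 added genes that were higher at 3 h with a promoter, 1 held the full element (Vgf, 2.94%) and 7 held the core (20.6%). These are matches of letters, with no test, and say nothing of binding. The windows of 3 of these genes follow, because they hold the full element close to the start, which lies just after the last base; the capitals mark the element (RefSeq, GRCr8, written 5′ to 3′ on the strand of the gene). They are Ppp1r15a at chr1:105139597-105139846 (minus strand), Plk2 at chr2:43702286-43702535 (plus strand) and Irf2bpl at chr6:112262265-112262514 (minus strand).
Ppp1r15a: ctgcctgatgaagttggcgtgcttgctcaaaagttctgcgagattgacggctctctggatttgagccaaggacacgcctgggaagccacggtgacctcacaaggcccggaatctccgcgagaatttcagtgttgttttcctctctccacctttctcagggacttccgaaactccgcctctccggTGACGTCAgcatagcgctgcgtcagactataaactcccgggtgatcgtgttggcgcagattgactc
Plk2: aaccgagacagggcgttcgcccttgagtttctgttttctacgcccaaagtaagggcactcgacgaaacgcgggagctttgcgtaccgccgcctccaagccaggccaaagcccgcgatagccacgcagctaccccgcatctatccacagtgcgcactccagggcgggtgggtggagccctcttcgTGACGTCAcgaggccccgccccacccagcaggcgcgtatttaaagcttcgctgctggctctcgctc
Irf2bpl: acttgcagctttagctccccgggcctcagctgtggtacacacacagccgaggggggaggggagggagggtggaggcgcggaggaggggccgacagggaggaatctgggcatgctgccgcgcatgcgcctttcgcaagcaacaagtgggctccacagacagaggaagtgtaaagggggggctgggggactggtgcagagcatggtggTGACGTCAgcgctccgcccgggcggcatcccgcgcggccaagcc

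Plk2, a kinase that weakens synapses after strong activity (probe set 10812954), ranged at 1 h from 10.038 to 10.157 (median 10.116) and at 3 h from 9.913 to 10.035 (median 9.969). Its change was among the smallest that passed (0.14 ± 0.0294, adjusted p = 0.019), yet every array at 1 h lay above every array at 3 h. Irf2bpl, whose protein acts in transcription and protein turnover, ranged at 1 h from 7.35 to 7.64 (median 7.53) and at 3 h from 7.06 to 7.49 (median 7.30). The times overlapped in this gene (0.25 ± 0.0563, adjusted p = 0.0358), which passed in 4 of 16 fits that left out 1 array, with an adjusted p of up to 0.0828 (without C380, Saccharin 1 hr).

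Of the genes added at 3 h, the one with the smallest p was Thrb, which encodes the thyroid hormone receptor beta (probe set 10782454). It ranged at 1 h from 7.77 to 7.90 (median 7.87) and at 3 h from 7.98 to 8.08 (median 8.04). The times were wholly apart, although the change was only -0.18 ± 0.0278 (adjusted p = 0.00161). Cdyl2, a chromodomain protein that binds methylated histone, ranged at 1 h from 7.14 to 7.38 (median 7.28) and at 3 h from 7.41 to 7.68 (median 7.52). Ppp1r10, a subunit that holds protein phosphatase 1 in the nucleus, ranged at 1 h from 6.96 to 7.29 (median 7.14) and at 3 h from 7.26 to 7.45 (median 7.37). Cdyl2 (-0.27 ± 0.0449, adjusted p = 0.00431) did not overlap between the times, and in Ppp1r10 (-0.26 ± 0.0443, adjusted p = 0.00465) 7 of 8 arrays at 3 h lay above all at 1 h. Maml3, a coactivator that Notch uses in the nucleus, was higher at 3 h (-0.22 ± 0.0419, adjusted p = 0.0106), as was Mex3b, an RNA-binding protein (-0.23 ± 0.0448, adjusted p = 0.0142).

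Receptors and enzymes were also among the genes that were higher at 3 h. Mas1, the receptor of angiotensin-(1-7), ranged at 1 h from 5.59 to 6.12 (median 5.85) and at 3 h from 6.02 to 6.58 (median 6.34). Its change of -0.46 ± 0.0801 (adjusted p = 0.0053) was the largest of the 14 at 3 h, and 6 of 8 arrays lay above all at 1 h. Pfdn2, a subunit of the chaperone prefoldin, ranged at 1 h from 9.14 to 9.33 (median 9.22) and at 3 h from 9.31 to 9.55 (median 9.48), with 7 arrays above and a change of -0.22 ± 0.038 (adjusted p = 0.00469). Pik3r2, a regulatory subunit of phosphoinositide 3-kinase, ranged at 1 h from 8.03 to 8.18 (median 8.10) and at 3 h from 8.21 to 8.32 (median 8.28). This was the smallest change of the 14 (-0.16 ± 0.0304, adjusted p = 0.00948), and the times did not overlap. Mboat7, an acyltransferase that puts arachidonic acid on phosphatidylinositol (-0.20 ± 0.0371, adjusted p = 0.00764), and Hs3st1, a sulfotransferase of heparan sulfate (-0.23 ± 0.0448, adjusted p = 0.0124), were higher at 3 h too. Lims2, an adaptor of integrin adhesions (-0.21 ± 0.0393, adjusted p = 0.00827), Niban2 (-0.18 ± 0.0348, adjusted p = 0.0114), Fam89b (-0.17 ± 0.0324, adjusted p = 0.0119) and Capn6, a calpain without protease activity (-0.23 ± 0.0451, adjusted p = 0.0141), complete the list. Of these 6 genes only Hs3st1 overlapped between the times.

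**Figure D4:**
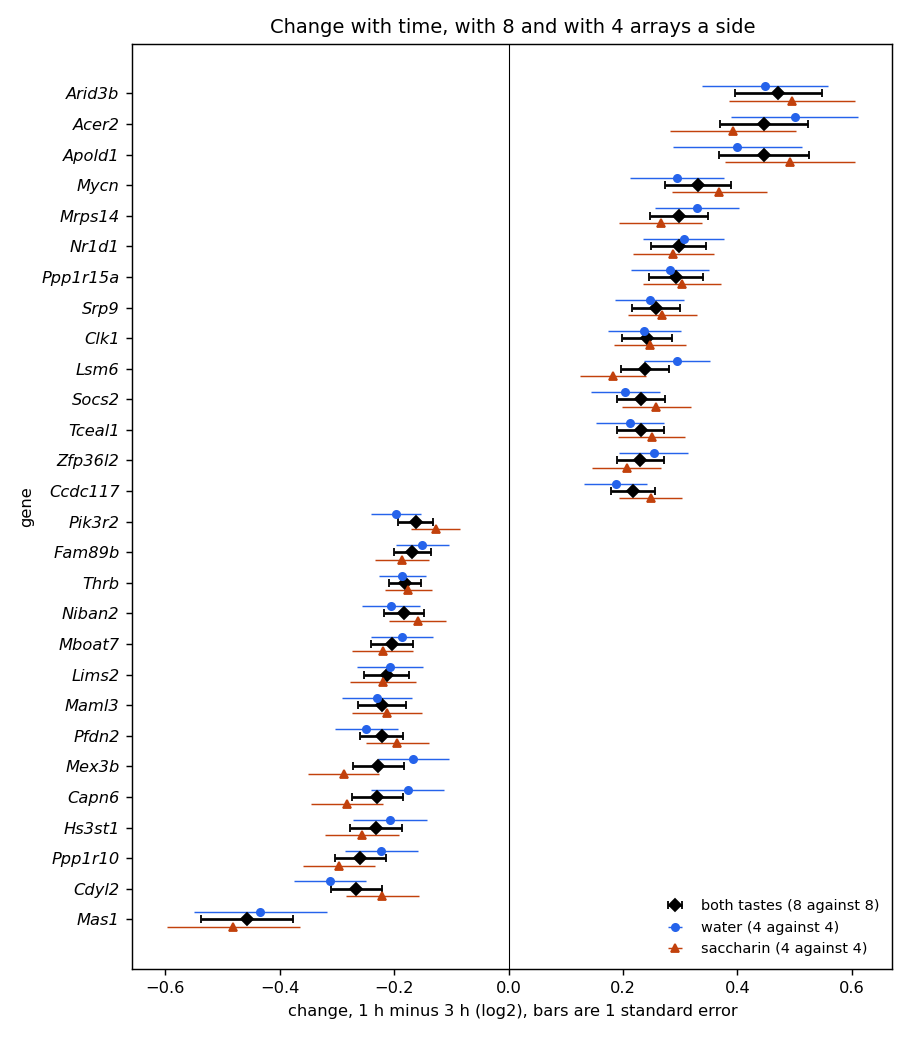
Change between 1 h and 3 h (x axis, log2, 1 h minus 3 h, bars are 1 standard error) for the 28 genes named by rule, 14 higher at 1 h and 14 higher at 3 h. Black diamonds are both tastes together (8 against 8 arrays), blue circles are Water and orange triangles Saccharin (4 against 4). The estimates of the tastes lie on the same side of 0 in each gene and their bars are wider than those of both tastes together.

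All 28 genes passed in each of the 16 fits that left out 1 array, which their choice by the smallest p of the full fit favours. Of all 111 added genes, 51 did. The interaction of taste and time had an unadjusted p under 0.05 in 10 of the 160 called probe sets (6.25%, against 2.96% of all tested) and in 0 of the 111 added ones, where the lowest p was 0.0799, and it passed the adjusted threshold in 0 of 15209. The 111 were chosen for passing with both tastes and in neither alone, which disfavours an interaction, so the 0 is not evidence that the tastes act alike. All 10 lie among the 49 that had passed in a taste alone, most of them after saccharin, and that choice favours an interaction, so nothing is read from their share. For comparison, the genes with the smallest p of the whole contrast had passed in a taste alone as well. Csrnp1 (0.68 ± 0.0454, adjusted p = 1.37e-07), Dusp1 (1.52 ± 0.115, adjusted p = 5.97e-07), Klf10 (1.03 ± 0.0911, adjusted p = 3.51e-06) and Junb (1.14 ± 0.105, adjusted p = 5.67e-06) were higher at 1 h, and Pde7b (-0.51 ± 0.0429, adjusted p = 1.97e-06), Pde10a (-0.49 ± 0.0471, adjusted p = 8.50e-06), Podxl (-0.33 ± 0.0352, adjusted p = 2.86e-05) and Inhba (-0.61 ± 0.0686, adjusted p = 3.99e-05) at 3 h, and in all 8 the times were apart.

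The Notch pathway passes a signal between touching cells. A Delta or Jagged ligand on one cell triggers cleavage of a Notch receptor on the next, whose inner part enters the nucleus and switches on Hes genes. Of 22 measured Notch, Hes and Id genes, 4 passed (18.2%, against 1.05% of all probe sets), all higher at 1 h. Of these, 3 had passed in neither taste alone. This list and those below were drawn up with earlier results of these data known, so their shares only describe them. Over the list 19 of 22 changes were positive, with a median of 0.08, where 50.0% of all probe sets were positive and their median was near 0. An unadjusted p under 0.05 was found in 10 of the 22, against 12.4% of all probe sets. Among the ligands, Dll1 ranged at 1 h from 5.21 to 5.69 (median 5.41) and at 3 h from 5.03 to 5.28 (median 5.19), a change of 0.24 ± 0.0561 (adjusted p = 0.0413). The receptor Notch1 ranged at 1 h from 6.43 to 6.64 (median 6.49) and at 3 h from 6.18 to 6.44 (median 6.35), a change of 0.18 ± 0.0408 (adjusted p = 0.0347). In both genes 7 of 8 arrays at 1 h lay above all at 3 h. The target Hes1, which had also passed in a taste alone, ranged at 1 h from 6.45 to 6.93 (median 6.78) and at 3 h from 5.80 to 6.41 (median 6.10), with no overlap (0.65 ± 0.0764, adjusted p = 6.99e-05).

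Id3, an inhibitor of basic helix-loop-helix factors, ranged at 1 h from 6.75 to 7.03 (median 6.88) and at 3 h from 6.34 to 6.88 (median 6.53), a change of 0.33 ± 0.0617 (adjusted p = 0.00827), and 4 arrays at 1 h lay above all at 3 h. Other members had values on the same side without passing, as Nrarp, a feedback inhibitor of Notch (0.36, adjusted p = 0.0682), the ligand Dll4 (0.22, adjusted p = 0.0853), Id2 (0.14, adjusted p = 0.122) and Hes5 (0.27, adjusted p = 0.137). The Jagged ligands, Rbpj and the Hey genes lay within 0.1 of 0. The called probe set of Maml3, described above and higher at 3 h, is not among the 22. The calls of Notch1 and Dll1 were lost in most of the 16 fits that left out 1 array, whereas Id3 passed in all 16. Notch1 passed in 6, with adjusted p up to 0.0768 (without C374, Water 1 hr). Dll1 passed in 3, with adjusted p up to 0.0913 (without C366, Saccharin 3 hr). With the leptomeningeal covariate the adjusted p was 0.238 for Id3, 0.0637 for Notch1 and 0.451 for Dll1.

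**Figure D5:**
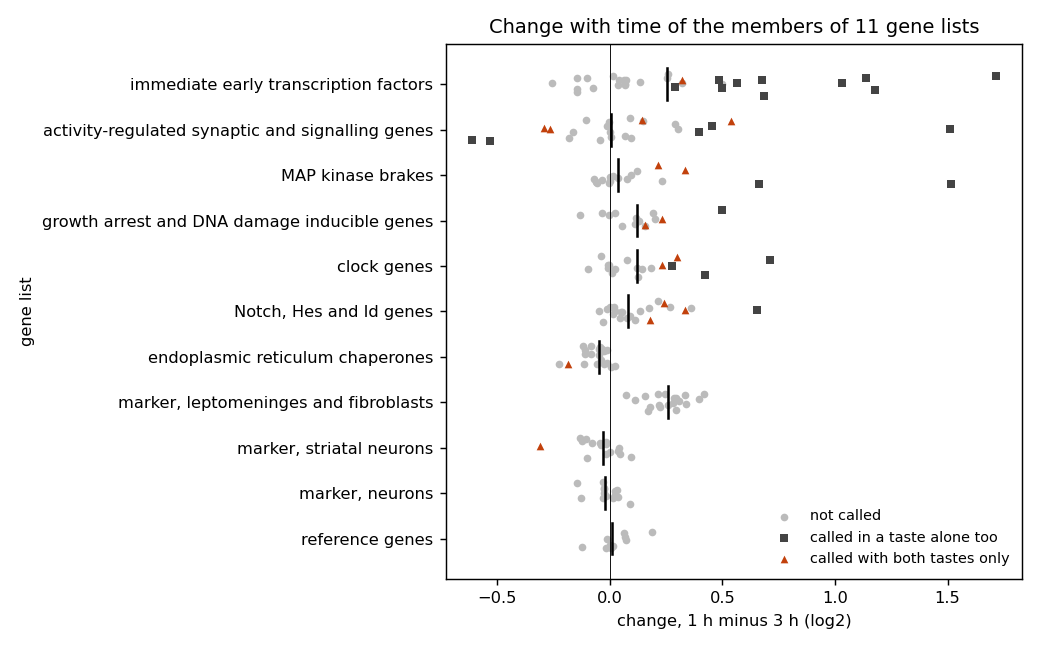
Change between 1 h and 3 h (x axis, log2, 1 h minus 3 h) of each measured member of 11 gene lists (y axis). Grey points did not pass, black squares passed in a taste alone as well, orange triangles passed with both tastes only, and the bar is the median of the list. The medians of the Notch, clock, growth arrest, immediate early and leptomeningeal lists lie furthest right of 0, at 0.08, 0.12, 0.12, 0.25 and 0.26. That of the ER chaperones lies furthest left at -0.047.

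Clock genes keep daily time and some also respond to stimuli within an hour. Of 17 measured, 5 passed (29.4%, against 1.05% of all probe sets), all higher at 1 h, and the median was 0.12 with 12 positive. Nr1d1, given above, and Bhlhe41 were the added ones. Bhlhe41, a repressor of CLOCK and BMAL1 target genes, ranged at 1 h from 7.34 to 7.62 (median 7.38) and at 3 h from 7.14 to 7.36 (median 7.19), a change of 0.23 ± 0.0478 (adjusted p = 0.0204), and 6 arrays at 1 h lay above all at 3 h. The repressor Per1 (0.71 ± 0.0796, adjusted p = 3.84e-05), Bhlhe40 (0.42 ± 0.0682, adjusted p = 0.00276) and Nfil3 (0.28 ± 0.0621, adjusted p = 0.0329) had passed in a taste alone too, although Nfil3 passed with both tastes in only 7 of 16 fits that left out 1 array (adjusted p up to 0.073, without C374, Water 1 hr). The activators of the loop did not pass, with Clock at -0.01 and Bmal1 at 0.08, nor did Cry1 (-0.01) or Cry2 (0.01). The hour of the day at which each group was killed is not in the labels, so time after drinking and time of day cannot be told apart.

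Genes that brake MAP kinase signalling were represented by 17 members, of which 4 passed (23.5%, against 1.05% of all probe sets), all higher at 1 h. Dusp1 and Dusp6 had passed in a taste alone, and Dusp5 and Spry2 were added. Dusp5, a nuclear phosphatase of ERK (probe set 10716080), ranged at 1 h from 5.54 to 5.74 (median 5.64) and at 3 h from 4.93 to 5.60 (median 5.31). The change was 0.33 ± 0.0681 (adjusted p = 0.0185), and 6 of 8 arrays at 1 h lay above all at 3 h. Spry2, an inhibitor of receptor tyrosine kinase signalling, ranged at 1 h from 7.15 to 7.36 (median 7.26) and at 3 h from 6.92 to 7.21 (median 7.06), a change of 0.22 ± 0.043 (adjusted p = 0.015). It passed in each fit without 1 array, as Dusp5 did. Spry4 (0.23, adjusted p = 0.0701) did not pass, and the other 12 members had changes within 0.15 of 0, among them Spry1 (-0.06) and Dusp4 (0.04). The window of Dusp5 at chr1:262543524-262543773 (plus strand) of GRCr8 is shown because it holds 2 adjacent CArG boxes, the element of serum response factor, which stood in 1.18% of all promoters and in 1 of the 65 added genes that were higher at 1 h (1.54%); the capitals mark them.
Dusp5: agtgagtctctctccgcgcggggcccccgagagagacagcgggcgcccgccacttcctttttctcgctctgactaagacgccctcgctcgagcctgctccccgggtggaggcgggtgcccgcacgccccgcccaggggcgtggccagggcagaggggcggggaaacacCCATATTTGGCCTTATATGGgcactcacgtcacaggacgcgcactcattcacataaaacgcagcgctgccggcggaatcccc

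Growth arrest and DNA damage inducible genes included 14 members, and 3 passed (21.4%, against 1.05% of all probe sets), all higher at 1 h. Gadd45b had passed in a taste alone (0.50 ± 0.0849, adjusted p = 0.00448), and Zfp36l2 and Tob1 were added. Tob1, an antiproliferative protein that recruits deadenylases to messenger RNA, ranged at 1 h from 8.395 to 8.546 (median 8.433) and at 3 h from 8.210 to 8.390 (median 8.277). The times did not overlap (0.16 ± 0.0358, adjusted p = 0.0384), yet Tob1 passed in only 4 of 16 fits without 1 array, with an adjusted p up to 0.0833 (without C365, Water 3 hr). Gadd45a (-0.13, adjusted p = 0.201), Cdkn1a (-0.03) and Btg1 (close to 0) lay on the other side of 0 and did not pass.

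The activity-regulated synaptic and signalling genes moved in both directions. Of 23 measured, 9 passed (39.1%, against 1.05% of all probe sets), and the median was 0.0050. Ccn1 and Plk2 were added at 1 h, and Camk1g and Vgf were added at 3 h. Ccn1, a secreted matrix protein that is an immediate early gene in many cells, ranged at 1 h from 5.07 to 5.996 (median 5.34) and at 3 h from 4.70 to 5.03 (median 4.83), without overlap (0.54 ± 0.108, adjusted p = 0.0151). Camk1g, a calcium/calmodulin-dependent kinase, ranged at 1 h from 7.07 to 7.30 (median 7.15) and at 3 h from 7.28 to 7.67 (median 7.41), a change of -0.27 ± 0.0545 (adjusted p = 0.0188). Vgf, the precursor of several neuropeptides, ranged at 1 h from 7.53 to 8.08 (median 7.89) and at 3 h from 7.996 to 8.30 (median 8.13), a change of -0.29 ± 0.0649 (adjusted p = 0.0322). In Camk1g 7 and in Vgf 6 of 8 arrays at 3 h lay above all at 1 h. Vgf passed in 6 of 16 fits without 1 array (adjusted p up to 0.0741, without C375, Saccharin 1 hr), and Ccn1, Plk2 and Camk1g in all 16. Bdnf, the growth factor of activity-dependent plasticity, did not pass (-0.18, adjusted p = 0.174), nor did Nptx2 (-0.16, adjusted p = 0.121) and Homer1 (-0.11, adjusted p = 0.377). Among 29 immediate early transcription factors 11 passed (37.9%, against 1.05% of all probe sets), and Ier5 was the single addition (0.32 ± 0.0753, adjusted p = 0.0434). It was called in 2 of 16 fits without 1 array (adjusted p up to 0.0951, without C380, Saccharin 1 hr). Ier5 read 7.96 in array C365 (Water 3 hr), against 7.30 to 7.59 in the other arrays at 3 h and 7.59 to 7.98 at 1 h.

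ER chaperones fold secretory proteins and rise when unfolded protein accumulates. Of 21 genes 1 passed (4.76%, against 1.05% of all probe sets), Hspa5, which encodes the master chaperone BiP. Hspa5 (probe set 10835692) ranged at 1 h from 10.30 to 10.43 (median 10.41) and at 3 h from 10.40 to 10.76 (median 10.58). It was higher at 3 h (-0.18 ± 0.0404, adjusted p = 0.029), and 7 of 8 arrays at 3 h lay above all at 1 h. Over the list 19 of 21 changes were negative, and the median was -0.047. Before adjustment 5 of the negative changes had p under 0.05 (5.97% of all probe sets were higher at 3 h with such a p), and 0 of the positive ones had. Calr (-0.12, adjusted p = 0.0961), Dnajb11 (-0.12, adjusted p = 0.141), Xbp1 (-0.11, adjusted p = 0.216) and Sdf2l1 (-0.23, adjusted p = 0.255) did not pass. Hspa5 itself passed in 7 of 16 fits without 1 array, with adjusted p up to 0.0704 (without C375, Saccharin 1 hr). The window of Hspa5 at chr3:38452766-38453015 (plus strand) of GRCr8 is shown with its ER stress response element in capitals (ERSE, CCAAT and CCACG at a spacing of 9 bases, searched on both strands), which stood in 0.126% of all promoters and in 1 of the 34 added genes that were higher at 3 h (2.94%).
Hspa5: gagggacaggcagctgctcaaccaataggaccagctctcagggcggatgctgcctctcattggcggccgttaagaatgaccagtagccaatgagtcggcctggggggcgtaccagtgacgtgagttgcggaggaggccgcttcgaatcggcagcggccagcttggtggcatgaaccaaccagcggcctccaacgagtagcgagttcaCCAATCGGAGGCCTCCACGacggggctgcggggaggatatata

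Of 27 potassium channel genes 2 passed (7.41%, against 1.05% of all probe sets), both higher at 3 h. Kcnd3, a subunit of the transient A-type current, was the added one and ranged at 1 h from 7.01 to 7.27 (median 7.14) and at 3 h from 7.25 to 7.42 (median 7.35), a change of -0.20 ± 0.0408 (adjusted p = 0.0174), with 7 of 8 arrays at 3 h above all at 1 h. A further 5 potassium channel genes had p under 0.05 before adjustment and were higher at 3 h (5.97% of all probe sets were), and Kcnj3 was the only one of the list with such a p that was higher at 1 h. Drd2, the dopamine receptor that marks one class of striatal neuron, was dim here and ranged at 1 h from 4.23 to 4.71 (median 4.53) and at 3 h from 4.65 to 5.08 (median 4.75), a change of -0.31 ± 0.0732 (adjusted p = 0.0475), and it passed in 4 of 16 fits without 1 array (adjusted p up to 0.0988, without C376, Water 1 hr). Drd1 (-0.11, adjusted p = 0.56) and Adora2a (0.04, adjusted p = 0.839), which mark the same tissue, did not pass, and with the striatal covariate Drd2 had adjusted p = 0.334. Of 21 muscarinic and other neuromodulator receptors 1 passed (4.76%, against 1.05% of all probe sets), the muscarinic receptor Chrm4. Chrm4 ranged at 1 h from 7.82 to 8.10 (median 7.95) and at 3 h from 7.39 to 7.71 (median 7.54), a change of 0.41 ± 0.0448 (adjusted p = 3.41e-05). It had passed in a taste alone too, and every array at 1 h lay above every array at 3 h. Before adjustment 5 of the 21 were higher at 3 h with p under 0.05 (5.97% of all probe sets were), among them Chrm2 (-0.18, adjusted p = 0.0837) and Htr1b (-0.20, adjusted p = 0.127). At 1 h 2 were higher with such a p (6.42% of all probe sets were). Of 24 glutamate and GABA-A receptor subunits 0 passed in limma, and 0 had an unadjusted p under 0.05.

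Lists of osmotic and glucocorticoid response genes were examined because thirsty rats had been given fluid. Of 16 osmotic response genes 1 passed (6.25%, against 1.05% of all probe sets), the water channel Aqp1. It ranged at 1 h from 5.13 to 5.53 (median 5.19) and at 3 h from 4.68 to 5.29 (median 4.99), a change of 0.27 ± 0.0636 (adjusted p = 0.0446). Aqp1 is also 1 of 7 markers of the choroid plexus, of which Kcnj13 stood at 0.35 (adjusted p = 0.1) and Ttr, its main product, was at a level of 3.3 with a change of 0.06. Aqp1 passed in 3 of 16 fits without 1 array (adjusted p up to 0.0937, without C369, Water 3 hr). Slc38a2, an amino acid transporter induced by hypertonicity (0.20, adjusted p = 0.0561), and Nfat5, the factor of the osmotic response (0.05, adjusted p = 0.669), did not pass. Of 20 glucocorticoid receptors and target genes 3 passed, all higher at 1 h, where 1.05% of all probe sets passed in either direction. Among them, Dusp1 and Per1 were already counted above, with the MAP kinase brakes and the clock genes. Tsc22d3, which encodes GILZ, was the added one. It ranged at 1 h from 7.29 to 7.60 (median 7.51) and at 3 h from 7.20 to 7.42 (median 7.30), a change of 0.18 ± 0.042 (adjusted p = 0.0446) and passed in 4 of 16 fits without 1 array (adjusted p up to 0.1, without C380, Saccharin 1 hr). Fkbp5 (-0.04) and Sgk1 (0.02), also targets of this receptor, did not pass.

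How far a call held when 1 array was left out differed among the added genes. Of the 111, 51 passed in all 16 fits that left out 1 array, 45 were lost in at least 8 of them, and the median was 13 fits. Of the 49 others, 45 passed in all 16. Leaving out array C376 (Water 1 hr) reduced the calls from 160 to 107 and the added ones from 111 to 60, and leaving out array C375 (Saccharin 1 hr) gave 112 and 67. Without array C378 (Water 1 hr), the array with the lowest mean correlation, the counts were 151 and 103. Array C365 (Water 3 hr) read high for activity genes. Its mean of the immediate early transcription factors was 6.54, within the 1 h range of 6.53 to 6.69. Its mean of the activity-regulated synaptic and signalling genes was 7.87, above the 1 h range of 7.75 to 7.86. Without C365 the counts were 141 and 80, and 25 probe sets passed after water. The cause was not tested. When all 28826 probe sets were tested and p-values adjusted over them, 56 of the 111 remained, and Hspa5, Notch1, Tob1, Dll1, Tsc22d3, Aqp1 and Drd2 were among those lost. Only 11 of the 111 had a mean level under 5, against 36.4% of all probe sets tested.

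Conversely, 5 of the 54 probe sets that passed in a taste alone did not pass with both tastes. Slc25a25, a mitochondrial carrier of ATP-Mg (0.37 after saccharin and 0.12 after water), Edrf1 (0.32 and 0.07) and the receptor Ephb3 (0.46 and 0.06) were higher at 1 h after saccharin, and Tert, the catalytic subunit of telomerase (-0.26 and -0.04), was lower. Rcor2, a corepressor, had passed after water (1.67) and stood at 0.04 after saccharin, and it ranged from 3.52 to 5.75 over the arrays at 3 h. With both tastes their adjusted p ran from 0.0645 for Slc25a25 to 0.149 for Rcor2. The interaction of taste and time had unadjusted p = 0.0321, 0.00602, 0.00100, 0.0110 and 0.000473 in these 5, which were chosen for passing in 1 taste, and an adjusted p of 1 in each.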

How the data were processed

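Expression was measured on 16 arrays, 1 rat each, in 4 groups of 4 taken from the labels. The authors processed the raw arrays with affy (version not given in the sources used here), quantile normalized all chips together and deposited log2 RMA values per probe set, which were used as deposited. Of 28826 probe sets, 15209 pair with 1 gene (14497 genes) in the array annotation and were tested, 306 pair with several and 13311 have no entry there.

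limma 3.58.1 in R 4.3.3 fitted taste and time on all 16 arrays (1 h minus 3 h, empirical Bayes, two-sided), with Benjamini-Hochberg adjusted p-values over the 15209. Tests within a taste and the interaction used the 4 group means. Tables were handled in Python 3.11.15 with numpy 2.4.6 and pandas 2.3.3. The script was tested on simulated data.

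The members and the 31 gene lists were chosen with earlier results of these data known. Named genes are the 14 with the smallest p in each direction among those called with both tastes and in neither alone, the 4 with the smallest p in each direction of all called, up to 4 of each list with the smallest p, and Gapdh and Actb. Other list members, genes at the threshold, genes with a motif and those called in a taste only stand outside this rule and were chosen after their values were seen. A list gene with several probe sets is given by the one with the highest mean.

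Promoters are the 250 bases upstream of the start in RefSeq (GRCr8). Alternatives covered the taste term, prior, array weights, normalization, dim probe sets, the probe sets tested, 2 marker lists as covariates and leaving out each array. The number of arrays limits the precision. Arrays C365 to C372 are all from 3 h and C373 to C380 all from 1 h, so time and array order cannot be told apart.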

Additional observations from a re-analysis of the deposited data

Results flagged for a closer look

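In 11 of 260 sets of 4 arrays (65 genes in 4 groups), the highest or lowest array stood apart from the other 3, its gap to the nearest, as a share of the range of the 4, exceeding Dixon's critical value. This test is set so that chance picks about 5% of such sets. For Srp9 the ratio was 0.973 in array C365 (Water 3 hr), which read 7.75 where the other 3 read 7.91. Capn6 had 0.889 in the same array (5.39 against 5.14 to 5.17). In array C366 (Saccharin 3 hr) the ratio was 0.873 for Socs2 (7.48 against 7.56 to 7.57) and 0.902 for Pde10a (7.83 against 7.69 to 7.70). Mas1 had 0.881 in array C370 (Saccharin 3 hr), where it read 6.02 against 6.34 to 6.39. Gpr19, an orphan receptor, had 0.925 in array C372 (Saccharin 3 hr) (6.23 against 6.44 to 6.45). Mex3b had 0.930 in array C378 (Water 1 hr) (6.67 against 6.81 to 6.82). In array C380 (Saccharin 1 hr) the ratio was 0.914 for Podxl (6.34 against 6.24 to 6.25) and 0.983 for Per1 (7.26 against 7.06). Tob1 had 0.871 in array C377 (Saccharin 1 hr) (8.52 against 8.40 to 8.41), and Bhlhe41 had 0.846 in array C375 of that group (7.62 against 7.34 to 7.38).

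Among the 13617 probe sets that have no single gene name, which the comparison by gene leaves out, 33 passed between 1 h and 3 h when all probe sets were tested (0.242%), 21 higher at 1 h and 12 higher at 3 h, with sizes up to 1.12.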

How the results depend on the processing

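The count of 160 called probe sets and the 111 called with both tastes only stayed within 1.5 times under 8 of the 11 settings other than leaving out an array. Restricting the test to probe sets with a mean log2 of at least 5 (9679 of them, so fewer tests) gave 241 and 168. The leptomeningeal mean as a covariate gave 33 and 9, and the striatal mean gave 53 and 25, and the cause was not tested. Leaving out 1 array gave 107 to 176 called and 60 to 124 called with both tastes only, the lowest without array C376 (Water 1 hr), and the latter was 67 without array C375 (Saccharin 1 hr). With each taste fitted on its own 8 arrays, 3 probe sets passed after water and 49 after saccharin, and 116 passed with both tastes only, 108 of them among the 111. Testing all 28826 probe sets, so more tests, gave 134 and 91, and of the 111 only 56 remained called. Of 65 single genes, most of them chosen for a small p, none changed direction while called; 40 lost their call with the leptomeningeal and 34 with the striatal covariate, 7 when all probe sets were tested, and at most 7 when an array was left out. No scaling moved the median change of all genes by 0.1. No paired analysis was possible because no replicate number is shared between groups.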

Other observations

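Several genes called with both tastes only encode secreted proteins or act on the extracellular matrix, and they were picked out after their values were seen. Sfrp1, a secreted inhibitor of Wnt signals, ranged at 1 h from 4.67 to 5.40 (median 4.94) and at 3 h from 4.29 to 4.75 (median 4.50), a change of 0.44 ± 0.097 (adjusted p = 0.0307). Thbs1, a matrix protein that glia secrete and that promotes synapse formation, ranged at 1 h from 5.21 to 5.79 (median 5.51) and at 3 h from 4.93 to 5.44 (median 5.14), a change of 0.37 ± 0.0797 (adjusted p = 0.0284). The protease Adamts1 (0.28 ± 0.0608, adjusted p = 0.0268) and Plat, the tissue plasminogen activator (0.22 ± 0.0482, adjusted p = 0.033), were higher at 1 h too, and the times overlapped in all 4. Mfge8, a secreted bridge to phosphatidylserine on dying cells, was higher at 3 h (-0.14 ± 0.0305, adjusted p = 0.0282), and its arrays did not overlap. With the leptomeningeal mean as a covariate the adjusted p was 0.558 for Sfrp1, 0.534 for Thbs1, 0.483 for Adamts1, 0.484 for Plat and 0.23 for Mfge8, above the threshold in each. Leaving out 1 array at a time, Sfrp1 passed in 7, Thbs1 in 8, Adamts1 in 10, Plat in 7 and Mfge8 in 10 of 16 fits.

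Genes of cell survival and death, also picked after their values were seen, moved in both directions. Mcl1, which protects mitochondria from BAX and BAK (0.30 ± 0.0602, adjusted p = 0.0144), Mdm2, the ubiquitin ligase of p53 (0.18 ± 0.0384, adjusted p = 0.0271), and Bnip3, a mitophagy receptor (0.15 ± 0.034, adjusted p = 0.0418), were higher at 1 h, whereas the death receptor Fas was higher at 3 h (-0.19 ± 0.0459, adjusted p = 0.0496). Mcl1 passed in 16, Mdm2 in 6, Bnip3 in 3 and Fas in 2 of the 16 fits without 1 array. The highest adjusted p over those fits was 0.0363 for Mcl1 (without C374, Water 1 hr), 0.0605 for Mdm2 (without C376, Water 1 hr), 0.0961 for Bnip3 (without C375, Saccharin 1 hr) and 0.0994 for Fas (without C375, Saccharin 1 hr).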
